A study of Arabidopsis thaliana with 30 samples.

Results

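The 43 genes described here encode members of the expansin family, which includes expansin-like proteins, and xyloglucan endotransglucosylase/hydrolases (XTHs), secreted proteins of the plant cell wall. They were chosen by locus, as listed members of both gene families. The rule holds no threshold on a measured value, but the list was drawn up with earlier results of these data known. Among the 33602 genes listed in each file they comprise 13 α-expansins (EXPA), 2 β-expansins (EXPB), 3 expansin-like A genes (EXLA), 1 expansin-like B gene (EXLB1), 18 XTHs of groups I and II and 6 of group III. All 43 passed the filter on low counts, as did 22156 genes in all.

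A primary cell wall is a network of cellulose microfibrils held apart and tethered by xyloglucan and embedded in pectin. The α- and β-expansins loosen this network without cutting it, most strongly at acid pH. XTHs cut a xyloglucan chain and join it to another one or, for some members of group III, to water. Auxin makes hypocotyl and stem cells expand within minutes, in part through acidification of the wall, but slows root elongation, and abscisic acid (ABA) limits growth under water deficit. Root hairs are single outgrowing epidermal cells, and a few members of both families are known as root hair genes.

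RNA was measured in 30 libraries of Arabidopsis thaliana, 3 in each of 10 groups. Seedlings were 5 days old, with 1 day of light followed by 4 days of darkness, and were moved to liquid medium for 2 h under green safe-light. The medium held 10 µM of the auxin IAA (indole-3-acetic acid), 10 µM of ABA or the matching amount of ethanol (mock), after which each seedling was cut into root and shoot. The genotypes were wild-type Col-0 (spelled Col-O in the labels), given all 3 treatments, and aba2-3, a line mutated in the ABA biosynthesis gene ABA2, given mock and IAA. Each treatment was done in triplicate per the labels, which do not say whether triplicates were separate sowings, so p-values measure the spread between these libraries. In bulk organs, fewer cells of a type and less RNA per cell cannot be told apart.

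The libraries held 3871038 to 99263091 counts, the lowest being aba2-3 IAA shoot replicate 3 and the next 11835730. Levels are given as CPM, the counts of a gene scaled to the TMM-adjusted total of its library, and a gene was called when its edgeR adjusted p was under 0.05. The hormones were registered in every treated group: the auxin markers GH3.3, IAA19 and LBD29 rose after IAA in both organs of both genotypes, and the ABA markers RAB18, PP2CA and HAI1 rose after ABA in both organs. The cut was not equally clean. Signature genes of an organ were those above 20 CPM there and over 50 times the other organ, by medians of the aba2-3 IAA libraries. The same medians set the shoot and root level to which the percentages refer. In 5 of the 15 root libraries the median of 338 shoot signature genes stood at 5.81% to 10.92% of its shoot level (Col-0 mock replicate 3, Col-0 IAA replicate 2, Col-0 ABA replicates 2 and 3 and aba2-3 mock replicate 1), against at most 1.89% in the other root libraries. Col-0 mock shoot replicate 1 held the same genes at 39.81%, against 69.28% or more in the other shoot libraries. Of the marker lists in Col-0 mock, 5 of 5 shoot genes were higher in the shoot and 7 of 7 root hair genes in the root, while of 5 root genes PYK10, a β-glucosidase of endoplasmic reticulum bodies, was higher in the shoot.

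Most of these genes differed in level between root and shoot. In mock-treated Col-0, 36 of 43 differed between root and shoot, 11 higher in the root and 25 higher in the shoot, where 24.3% and 25.6% of all genes tested were called. In mock-treated aba2-3 the numbers were 14 and 25, beside 26.3% and 27.7% of all genes. The median log2 difference of root minus shoot was -1.25 over the 43 genes and 0.03 over all genes tested in Col-0, and -1.21 over the 43 in aba2-3. Summed over the family, the 24 XTHs reached 1854 ± 303 CPM in Col-0 mock roots and 7283 ± 1875 CPM in mock shoots (SD, n = 3), and the 19 expansins 483 ± 21.5 and 875 ± 25 CPM. The same 11 genes higher in the root in Col-0 were also higher there in aba2-3, and 24 of the 25 higher in the shoot were shared.

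**Figure D1:**
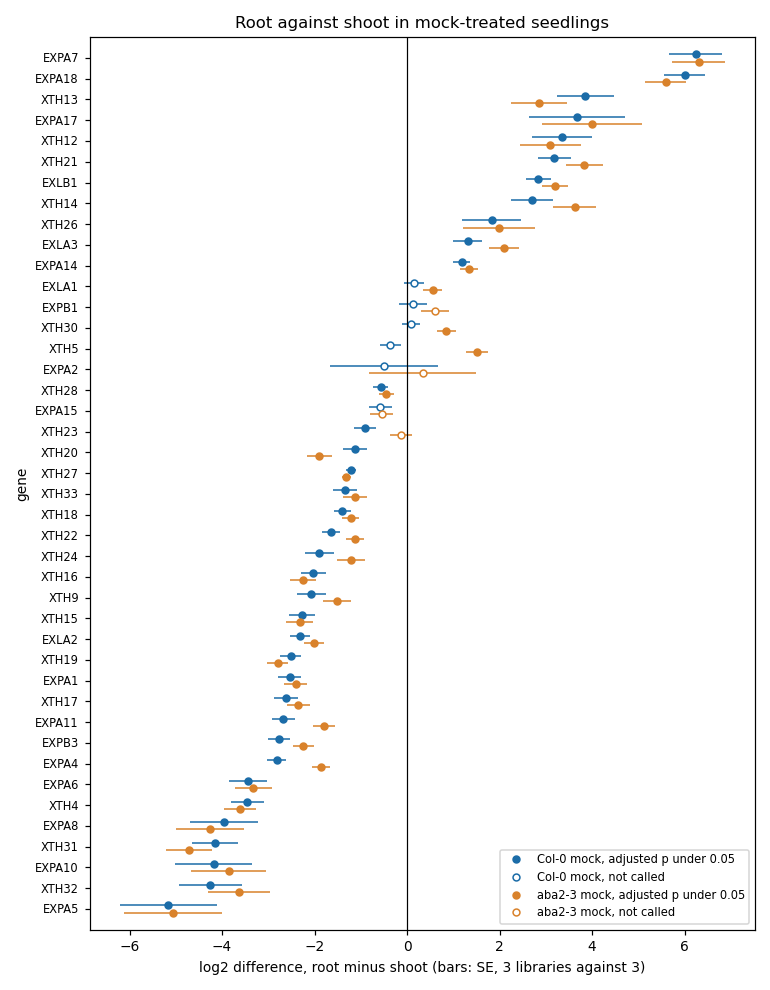
Log2 difference of root minus shoot (x axis) for 42 of the 43 genes (y axis, ordered by the Col-0 value), in mock-treated Col-0 and aba2-3, with bars of 1 SE and filled points where the adjusted p was under 0.05. XTH25, which had no count in the aba2-3 mock roots, is not drawn; EXPA7 and EXPA18 lie at the root end near 6 and EXPA5 at the shoot end near -5 in both genotypes.

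Compared per kilobase of exon (RPKM computed from the scaled CPM), a few XTHs were far above the rest. In Col-0 mock shoots the order began with XTH18 at 1418 ± 518 RPKM, XTH4 at 1339 ± 361, XTH15 at 1058 ± 309 and XTH17 at 651 ± 260.1 (SD, n = 3), where the steps from XTH18 to XTH4 and from XTH4 to XTH15 were smaller than 1 SD and that from XTH15 to XTH17 was larger. In Col-0 mock roots XTH18 led with 538 ± 112 RPKM, followed by XTH15 at 219 ± 51.9 and EXLB1 at 189 ± 16, and the last of these was the most abundant expansin-family transcript of the root. The most abundant expansins of the shoot per kilobase were EXPA11 at 118 ± 23.4, EXPA4 at 116 ± 13 and EXPA6 at 108 ± 30.5 RPKM, which overlapped in their spread. At the other end, EXPA2, known from germinating seeds, had its highest group mean, 1.16 ± 0.3 RPKM, in Col-0 ABA roots, and XTH25 its highest, 0.44 ± 0.4 RPKM, in Col-0 IAA shoots.

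EXPA7 and EXPA18, the α-expansins of root hairs, had the largest excess in the root. EXPA7 (AT1G12560, chromosome 1, 4276519 to 4277899, plus strand) stood at 22, 17.4 and 25.1 CPM in the Col-0 mock roots and 0.28, 0.13 and 0.64 in the shoots, a log2 difference of 6.24, SE 0.57, adjusted p 5.8e-09. EXPA18 (AT1G62980, chromosome 1, 23331676 to 23333110, plus strand) stood at 37.8, 30.3 and 33.2 CPM in roots and 0.72, 0.36 and 0.64 in shoots, a log2 difference of 6.0, SE 0.45, adjusted p 3.7e-10. In none of the 5 root groups did a library of either gene reach down to any shoot library, and neither gene was called in any comparison of hormone or genotype. In Col-0 ABA roots EXPA18 stood at 62, 58.7 and 41 CPM, above the 3 mock libraries, at a log2 difference of 0.67, SE 0.33, adjusted p 0.2.

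The 250 bases before the start of both genes are shown because the root hair element, a motif of root hair promoters known from EXPA7, was found in these 2 windows and in no other of the 43. Sequences are from RefSeq, TAIR10.1, plus strand, taken before the outermost of the deposited and RefSeq starts, and capitals mark every motif searched on both strands: the root hair element (RHE), TGTCTC and TGTCGG (auxin response elements), ACGTG (core of the ABA response element) and CACGTG (G-box).
EXPA7, chr1:4276255-4276504: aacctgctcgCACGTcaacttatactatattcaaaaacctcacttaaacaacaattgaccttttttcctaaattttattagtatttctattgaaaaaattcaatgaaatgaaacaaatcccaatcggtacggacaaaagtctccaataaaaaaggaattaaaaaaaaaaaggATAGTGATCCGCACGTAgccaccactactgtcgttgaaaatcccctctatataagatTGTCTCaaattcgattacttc
EXPA18, chr1:23331313-23331562: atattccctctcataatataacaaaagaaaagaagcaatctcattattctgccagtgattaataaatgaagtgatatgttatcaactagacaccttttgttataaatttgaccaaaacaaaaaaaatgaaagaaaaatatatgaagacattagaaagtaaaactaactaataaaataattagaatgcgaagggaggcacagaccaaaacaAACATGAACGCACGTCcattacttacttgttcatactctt
The element starts 78 bases before the start of EXPA7 and 40 before that of EXPA18, and in each its end overlaps an ACGTG read on the other strand. Of 22031 windows of genes tested, 167 (0.8%) held the element. EXPA7 also holds a second ACGTG, near the far end of its window, and 1 TGTCTC. Such a match is a description of the letters and not of a bound site.

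Among the 24 XTHs, 5 were higher in the root and 16 in the shoot of mock-treated Col-0, beside 24.3% and 25.6% of all genes. XTH14, which is active in root hairs, stood at 66.1, 62.4 and 63.5 CPM in Col-0 mock roots and 17, 3.49 and 9.51 in shoots, 2.70, SE 0.45, adjusted p 1.8e-05. XTH21, known for its part in primary root growth, stood at 18.9, 18.1 and 14.7 CPM in roots and 2.37, 1.21 and 2.29 in shoots, 3.18, SE 0.36, adjusted p 8.3e-08. XTH13 reached 2.37, 1.91 and 2.63 CPM in roots against 0.2, 0.09 and 0.23 in shoots (3.85, SE 0.62, adjusted p 1.4e-05), and XTH12 4.97, 3.3 and 4.02 against 0.96, 0.12 and 0.23 (3.35, SE 0.65, adjusted p 0.00013). For all 4 genes the lowest root library was above the highest shoot library. XTH26, also a root hair XTH, was called in both genotypes, but its call was lost without Col-0 mock root replicate 1 or mock shoot replicate 2 or 3 (adjusted p 0.055 to 0.19) and, in aba2-3, without 4 of 6 single libraries (0.078 to 0.27). EXLB1 (222, 210.4 and 188 CPM in roots, 40.1, 20.4 and 26.2 in shoots, 2.84, SE 0.28, adjusted p 1.2e-08) was also higher in the root. So was EXPA17, an expansin of lateral root emergence, at 1.64, 1.69 and 2.01 CPM in roots and 0.12, 0.01 and 0.37 in shoots (3.67, SE 1.03, adjusted p 0.0044).

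Shoot-biased genes included the expansins of expanding aerial organs. EXPA5 stood at 44.8, 42.9 and 38.3 CPM in Col-0 mock shoots and 0.15, 0.3 and 3.35 in roots, -5.16, SE 1.05, adjusted p 0.0002. EXPA10, which controls leaf and petiole size, stood at 7.27, 20.1 and 21.7 CPM in shoots and 0.15, 0.19 and 2.58 in roots, -4.18, SE 0.83, adjusted p 0.00016. XTH31 and XTH32 of group III, whose members include xyloglucan hydrolases, were of the same kind. XTH31 stood at 226, 271 and 284 CPM in shoots and 5.58, 9.25 and 29.4 in roots (-4.15, SE 0.49, adjusted p 1.6e-07), and XTH32 at 167, 313 and 269 in shoots and 4.97, 7 and 27.6 in roots (-4.25, SE 0.69, adjusted p 1.4e-05). In each of these genes the highest Col-0 mock root value was replicate 3, the mock root library with the most shoot signature. Without the root libraries above 5% of the shoot signature the log2 differences were larger in size: -7.55, adjusted p 2e-13 for EXPA5, -6.59, adjusted p 1.2e-09 for EXPA10, -5.17, adjusted p 1.1e-11 for XTH31 and -5.42, adjusted p 1.5e-11 for XTH32. The remaining shoot-biased calls ran from -0.57 (XTH28) to -3.96 (EXPA8) and took in XTH17, XTH18, XTH19, XTH20, EXPA1, EXPA4 and EXPB3.

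Neighbouring genes of 1 cluster did not always share the organ in which they were higher. XTH23 and XTH14 lie 412 bases apart on chromosome 4, on the same strand, and XTH14 was higher in the root. XTH23 had 87.7, 177 and 93.1 CPM in Col-0 mock roots and 320.1, 184 and 167 in shoots (-0.91, SE 0.24, adjusted p 0.0031, with overlapping groups). In aba2-3 mock XTH23 was not called between the organs. On chromosome 5 the 4 genes XTH12, XTH13, XTH25 and XTH22 follow each other at gaps of 1390, 838 and 708 bases on the minus strand. XTH22, the touch-inducible gene TCH4, was higher in the shoot (282, 261 and 187 CPM against 57.4, 103 and 74.2, -1.64, SE 0.19, adjusted p 1.5e-07), and XTH12 and XTH13 in the root. XTH25 had 0, 0 and 0 counts in the aba2-3 mock root libraries and 6, 2 and 9 in the mock shoots, too few for a fold. In contrast, XTH18 and XTH19, 1664 bases apart on chromosome 4, were both higher in the shoot and both rose after IAA in the root.

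IAA raised a block of these genes in the root. In Col-0 roots 12 of 43 rose and 2 fell, beside 2.64% and 2.92% of all genes tested, and the median log2 difference was 0.38 over the 43 and -0.01 over all genes. Roots of aba2-3 had 12 higher and 3 lower, beside 7.02% and 4.82%, with a median of 0.00 over both the 43 and all genes. Both genotypes shared 10 rises (EXPA1, EXPA4, EXLA1, EXLA2, XTH17, XTH18, XTH19, XTH20, XTH23 and XTH27) and 2 falls (EXPA14 and EXPB1). By class, the rises in Col-0 took in 6 of 18 XTHs of groups I and II, 1 of 6 of group III, 2 of 13 EXPA, 1 of 2 EXPB and 2 of 3 EXLA genes.

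**Figure D2:**
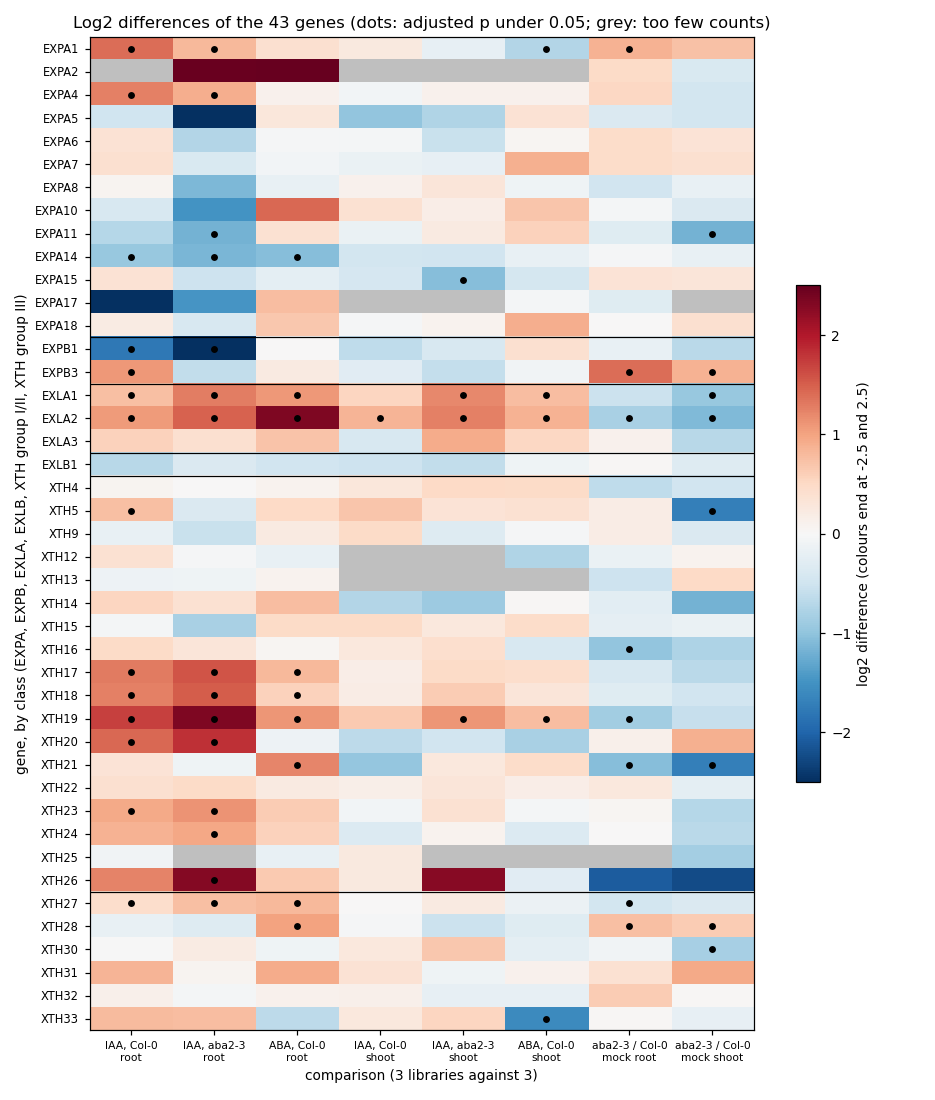
Log2 differences (colour) of the 43 genes (rows, by class) in the 6 hormone comparisons and the 2 genotype comparisons in mock libraries (columns), 3 libraries against 3 each. Dots mark an adjusted p under 0.05, and grey marks 16 cells in which 1 of the groups had under 10 counts in all; XTH17, XTH18, XTH19 and XTH20 are dotted in both root IAA columns, XTH19 also in the aba2-3 shoot IAA column, and EXLA2 is dotted in all 8.

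XTH17 to XTH20 are close relatives of groups I and II, known for root expression, and all 4 rose. XTH19 (AT4G30290, chromosome 4, 14828712 to 14830016, minus strand) stood at 39.3, 45.6 and 49.4 CPM in Col-0 mock roots and 161, 148 and 131 after IAA, a log2 rise of 1.71, SE 0.21, adjusted p 1.6e-05. In aba2-3 roots it went from 32.8, 18.1 and 23.2 to 119, 143 and 114 CPM, 2.34, SE 0.22, adjusted p 9.8e-08. Of the genes called, XTH19 had the largest rise in both genotypes. XTH20 stood at 6.15, 6.74 and 8.24 CPM in Col-0 mock roots and 22.5, 17.6 and 17 after IAA (1.44, SE 0.27, adjusted p 0.0015). In aba2-3 it went from 6.86, 10.6 and 5.47 to 24.7, 30.5 and 25.7 CPM (1.82, SE 0.27, adjusted p 6.5e-05), and in neither genotype did the groups overlap. XTH17 stood at 78.2, 152 and 106 CPM in Col-0 mock roots and 222, 324 and 277 after IAA (1.29, SE 0.25, adjusted p 0.0021). In aba2-3 it went from 100, 84.2 and 68.5 to 275, 237 and 241 (1.58, SE 0.25, adjusted p 0.00015). XTH18, already the most abundant of them, went from 440.1, 673 and 579 to 1261, 1388 and 1383 CPM in Col-0 (1.25, SE 0.19, adjusted p 0.00026) and from 532, 398 and 443 to 1329, 1373 and 1211 in aba2-3 (1.51, SE 0.20, adjusted p 1.3e-05). All treated root libraries lay above all mock root libraries of their genotype for each of the 4 genes.

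Their coding relatedness left few ambiguous stretches. XTH19 shared 21 of its 1078 exon stretches of 50 bases with XTH17 or XTH18, XTH18 shared 19 of 999 and XTH17 2 of 1000, and XTH20 none. Across the 43 genes only EXLA1, EXLA3 and XTH21 besides these 3 had any stretch of 50 bases in common with another gene, XTH21 at 9.1% of its stretches with AT2G12660. EXLA1 also overlaps 22 exon bases of AT3G45980 on the other strand. How reads from such stretches were counted is not given in the sources used here.

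**Figure D3:**
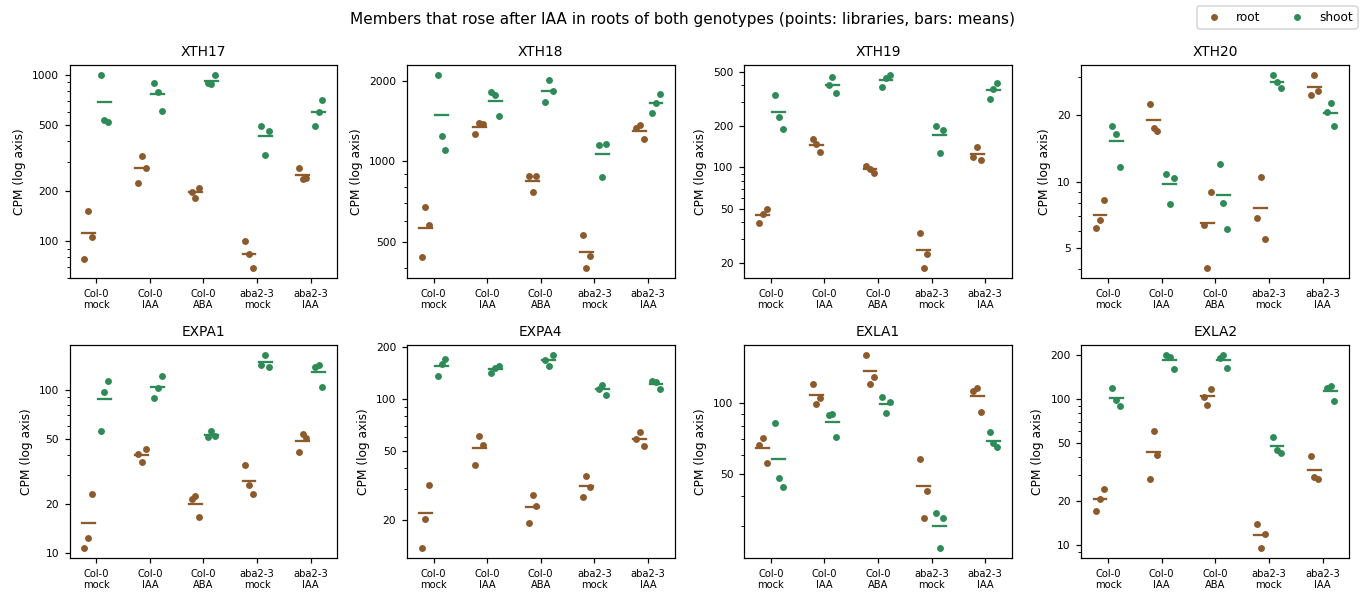
CPM on a log axis (y) in each library of the 10 groups (x), roots in brown and shoots in green, for 8 of the 10 genes that rose after IAA in roots of both genotypes; points are libraries and bars the means of 3. The IAA root points lie above the mock root points in each panel, while the shoot points of XTH20 lie lower after IAA in Col-0.

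α-Expansins were split. EXPA1, which is known from guard cells and growing organs, stood at 10.6, 12.3 and 22.8 CPM in Col-0 mock roots and 40.1, 35.9 and 43.1 after IAA, a rise of 1.39, SE 0.24, adjusted p 0.00095. EXPA4 stood at 13.7, 20.3 and 31.9 CPM in mock and 41.6, 60.9 and 54.2 after IAA, 1.25, SE 0.20, adjusted p 0.0004. Both rose in aba2-3 roots as well, EXPA1 by 0.81, SE 0.24, adjusted p 0.027 and EXPA4 by 0.91, SE 0.20, adjusted p 0.0036. EXPA14 fell from 19.9, 21.6 and 23.3 to 12.2, 8.49 and 12.9 CPM in Col-0 (-0.94, SE 0.19, adjusted p 0.0037) and from 18.8, 22.7 and 21.9 to 9.32, 8.68 and 10.6 in aba2-3 (-1.15, SE 0.20, adjusted p 0.00036). EXPA11 fell in aba2-3 roots, from 25.4, 13.3 and 12.5 to 7.06, 8.76 and 6.82 CPM (-1.18, SE 0.25, adjusted p 0.0022), and in Col-0 stood at 19.4, 17.4 and 26.2 CPM in mock and 14.1, 15.6 and 8.81 after IAA (-0.71, SE 0.24, adjusted p 0.085). The difference of this response between genotypes was -0.48, SE 0.34, adjusted p 0.55.

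The largest fall among the genes called was in the β-expansin EXPB1. Its level was 7.45, 7.86 and 13.3 CPM in Col-0 mock roots and 3.51, 3.2 and 1.56 after IAA (-1.78, SE 0.31, adjusted p 0.00097). In aba2-3 it was 9.89, 8.78 and 6.41 CPM in mock and 0.89, 0.94 and 0.71 after IAA (-3.31, SE 0.35, adjusted p 8.6e-07). The 3 treated aba2-3 libraries were all under 1 CPM and the 3 treated Col-0 libraries all above it, and the difference between the responses of the genotypes was -1.53, SE 0.46, adjusted p 0.092. EXPB3, the other β-expansin, moved the opposite way in Col-0 roots, from 2.1, 2.47 and 2.68 to 3.9, 4.09 and 7.33 CPM (1.08, SE 0.23, adjusted p 0.0054). The expansin-like genes EXLA1 and EXLA2 rose in both genotypes, by 0.76, SE 0.21, adjusted p 0.03 and 1.07, SE 0.21, adjusted p 0.0033 in Col-0 and by 1.27, SE 0.21, adjusted p 0.00025 and 1.48, SE 0.22, adjusted p 6.9e-05 in aba2-3. XTH26 was called in aba2-3, from 0.95, 1.49 and 0.04 to 4.05, 5.7 and 2.62 CPM (2.29, SE 0.66, adjusted p 0.024). Its Col-0 levels were 6.19, 1.95 and 2.42 CPM in mock and 9.71, 9.18 and 6.03 after IAA (1.24, SE 0.61, adjusted p 0.27), with a difference between genotypes of 1.06, SE 0.88, adjusted p 0.62.

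Several of the root calls were lost when single libraries were left out. In Col-0, 8 of 14 calls held whichever library was left out, and those lost were EXLA1 (any of the 6, adjusted p up to 0.12), XTH5 (any but IAA replicate 2, up to 0.22) and XTH23 (mock replicate 1 or 3, IAA replicate 2 or 3, up to 0.14). Lost too were XTH27 (mock replicate 1 or IAA replicate 2, up to 0.1), EXPB3 (IAA replicate 3, 0.063) and EXLA2 (IAA replicate 2, 0.05). Without the root libraries high in the shoot signature XTH17 (1.10, adjusted p 0.053) and EXPA14 (-0.74, adjusted p 0.063) missed the threshold as well, as did EXLA1 (0.71, adjusted p 0.11), XTH23 (0.66, adjusted p 0.23) and XTH27 (0.36, adjusted p 0.21). In aba2-3, 12 of 15 held, and those lost were XTH24 (any of the 6, up to 0.13), EXPA1 (mock or IAA replicates 2 and 3, up to 0.13) and XTH26 (mock replicate 1 or 3, IAA replicate 2, up to 0.089).

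In the shoot few of these genes were called after IAA. In Col-0 shoots EXLA2 alone was called, higher after IAA, beside 0.921% of all genes higher and 1.3% lower. EXLA2 stood at 118, 98.1 and 89.3 CPM in mock and 199, 192 and 159 after IAA, 0.85, SE 0.21, adjusted p 0.032, with no overlap. The call was lost without mock shoot replicate 2 or 3 or IAA replicate 1 or 2 (adjusted p up to 0.15). When both groups were fitted alone the adjusted p of EXLA2 was 0.052, and 1 other member, EXPA5, was called in its place, lower after IAA (adjusted p 0.018). Leaving out mock shoot replicate 1, the library low in the shoot signature, gave 4 members called and leaving out IAA shoot replicate 1 gave 2, both lower after IAA. In aba2-3 shoots EXLA1, EXLA2 and XTH19 rose and EXPA15 fell, beside 1.4% and 0.515% of all genes. EXLA2 went from 55.1, 44.6 and 42.4 to 118, 122 and 96.6 CPM (1.25, SE 0.21, adjusted p 0.0011). EXLA1 rose from 34, 24 and 32.2 to 75, 67.6 and 65 CPM (1.20, SE 0.21, adjusted p 0.0013). XTH19 rose from 200.2, 127 and 189 to 317, 377 and 415 (1.10, SE 0.21, adjusted p 0.0032). These 3 calls held without any 1 library. That of EXPA15 (16.1, 24.5 and 20.4 to 8.72, 11.3 and 8.8 CPM, -1.07, SE 0.26, adjusted p 0.029) was lost in 5 of 6 such fits (up to 0.24). In Col-0 shoots XTH19 had 342, 236 and 191 CPM in mock and 401, 458 and 350.0 after IAA, 0.65, SE 0.21, adjusted p 0.099.

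For 3 genes the response to IAA itself differed between root and shoot of Col-0, each with the larger value in the root, beside 0.542% of all genes in that direction and 0.456% in the other. XTH20 rose in the root and stood in the shoot at 17.8, 16.5 and 11.6 CPM in mock and 10.9, 7.9 and 10.4 after IAA (-0.66, SE 0.26, adjusted p 0.2), so that the difference of the responses was 2.1, SE 0.37, adjusted p 0.0051. EXPA4 stood in the shoot at 136, 160.0 and 169 CPM in mock and 142, 152 and 154 after IAA and differed by 1.31, SE 0.28, adjusted p 0.02. EXPB3 stood in the shoot at 15.5, 16 and 17.9 CPM in mock and 15.1, 11.3 and 14.4 after IAA and differed by 1.35, SE 0.31, adjusted p 0.032. The call of XTH20 held without any 1 of 12 libraries, and 5 members were called without IAA shoot replicate 1. Those of EXPA4 and EXPB3 were each lost in 8 of 12 such fits. EXPA4 lost its call without Col-0 mock root replicate 1 or 2, mock shoot 2 or 3, IAA root 2 or 3 or IAA shoot 2 or 3 (adjusted p up to 0.079). EXPB3 lost its call without any mock root replicate, mock shoot 2 or 3, IAA root 3 or IAA shoot 2 or 3 (up to 0.12). With base-composition offsets the adjusted p was 0.054 for EXPA4 and 0.095 for EXPB3. XTH19, XTH17 and XTH18, called in the root, had differences of 1.06, SE 0.29, adjusted p 0.081, 1.13, SE 0.34, adjusted p 0.11 and 1.07, SE 0.27, adjusted p 0.054, none of which passed the threshold.

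ABA also raised XTHs and expansin-like genes in Col-0 roots, and the leading gene was another one. There, 8 of 43 rose and 1 fell, beside 8.31% and 7.4% of all genes. The median log2 difference was 0.38 over the 43 and -0.03 over all genes. The rises took in 4 of 18 XTHs of groups I and II, 2 of 6 of group III and 2 of 3 EXLA genes. No EXPA, EXPB or EXLB gene was called higher. EXLA2 (AT4G38400, chromosome 4, 17978443 to 17979740, minus strand) stood at 17, 20.7 and 24.1 CPM in mock roots and 104, 91.2 and 118 after ABA, a rise of 2.34, SE 0.22, adjusted p 1.9e-08. XTH21 went from 18.9, 18.1 and 14.7 to 45.6, 41.9 and 32.7 CPM (1.22, SE 0.32, adjusted p 0.0087). XTH19 went from 39.3, 45.6 and 49.4 to 102, 98 and 90.4 CPM (1.11, SE 0.21, adjusted p 0.0004), and EXLA1 from 66, 70.8 and 55.8 to 160.2, 120.4 and 129 (1.09, SE 0.21, adjusted p 0.00044). In each of these 4 genes every ABA library lay above every mock library. XTH28 and XTH27, 2 group III genes, rose by 1.00, SE 0.16, adjusted p 6.4e-05 and 0.81, SE 0.10, adjusted p 1.4e-06, the latter with ABA root libraries at 111, 116 and 116 CPM against 58.1, 72.4 and 64.4 in mock. EXPA14 fell, as it did after IAA, from 19.9, 21.6 and 23.3 to 12.7, 7.64 and 10.6 CPM (-1.06, SE 0.19, adjusted p 0.00026).

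The other ABA rises in the root were XTH17 (0.81, SE 0.24, adjusted p 0.023) and XTH18 (0.58, SE 0.19, adjusted p 0.038). They were lost without mock root replicate 1 or 3 or ABA root replicate 3, and XTH18 also without ABA root replicate 1 (adjusted p up to 0.21). Of the 3 Col-0 ABA root libraries 2 were high in the shoot signature, and the median of 42 root signature genes stood at 35.18% to 44.47% of its root level in the ABA libraries against 74.52% to 80.34% in mock. The part of the latter in these results was not tested. With the root libraries above 5% left out, EXLA2 (2.5, adjusted p 7.2e-07), EXLA1 (1.27, adjusted p 0.0048), XTH19 (1.30, adjusted p 0.0058), XTH27 (0.81, adjusted p 0.0042) and XTH28 (1.10, adjusted p 0.001) remained called. XTH21 (1.34, adjusted p 0.089) and EXPA14 (-0.67, adjusted p 0.13) did not, nor did XTH17 and XTH18 (adjusted p 0.18 and 0.15).

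In Col-0 shoots ABA raised EXLA1, EXLA2 and XTH19 and lowered EXPA1 and XTH33, beside 4.98% and 4.67% of all genes. XTH33, a group III protein anchored at the plasma membrane, fell from 102, 74.7 and 71.8 to 34, 24.4 and 23.5 CPM (-1.60, SE 0.26, adjusted p 0.00013), with all ABA libraries below all mock libraries, and this call held in every alternative fit. EXLA2 went from 118, 98.1 and 89.3 to 191, 199.96 and 164 CPM (0.86, SE 0.21, adjusted p 0.0086). EXLA1 went from 82.1, 47.8 and 43.7 to 106, 90.5 and 101 CPM (0.78, SE 0.21, adjusted p 0.016). None of these groups overlapped, nor did those of the other 2 genes. XTH19 rose from 342, 236 and 191 to 387, 452 and 478 CPM (0.78, SE 0.21, adjusted p 0.016). EXPA1 fell from 55.8, 96.3 and 113 to 51.4, 55.7 and 51.8 CPM (-0.74, SE 0.24, adjusted p 0.049). Its lowest mock library, replicate 1 at 55.76 CPM, was nearly equal to its highest ABA library at 55.73 CPM. The calls of these genes other than XTH33 were lost without mock shoot replicate 3 for all 4 genes (adjusted p up to 0.33), without replicate 2 for all but EXLA2, without ABA replicate 3 for XTH19 and without any ABA replicate for EXPA1.

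The response to ABA differed between root and shoot for EXLA2 (1.48, SE 0.30, adjusted p 0.0093), XTH28 (1.31, SE 0.23, adjusted p 0.0026) and XTH27 (0.95, SE 0.14, adjusted p 0.00072), beside 0.903% of all genes with a larger value in the root and 0.812% with a smaller one. EXLA2 rose in both organs and by more in the root. XTH27 stood at 155, 148 and 148 CPM in mock shoots and 129, 132 and 148 after ABA (-0.14, SE 0.10, adjusted p 0.45). XTH28 stood at 32, 38.4 and 41.4 in mock and 32.5, 29.7 and 27.9 after ABA (-0.31, SE 0.16, adjusted p 0.26). Both rose in the root. All 3 differences held without any 1 library, 5 members were called without Col-0 mock shoot replicate 1, and that of XTH28 missed the threshold when the 4 groups were fitted alone (adjusted p 0.07).

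EXLA1 and EXLA2, which rose after ABA in both organs, are also the only members among the 8 ABA-raised root genes whose upstream windows hold the ACGTG core, and their windows are shown for that reason, with the same marking as above. EXLA1 lies on the plus and EXLA2 on the minus strand.
EXLA1, chr3:16895916-16896165: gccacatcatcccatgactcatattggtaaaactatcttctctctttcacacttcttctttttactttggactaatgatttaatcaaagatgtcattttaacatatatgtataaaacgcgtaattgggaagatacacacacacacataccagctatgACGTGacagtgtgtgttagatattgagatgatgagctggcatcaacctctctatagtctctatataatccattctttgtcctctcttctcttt
EXLA2, chr4:17979741-17979990: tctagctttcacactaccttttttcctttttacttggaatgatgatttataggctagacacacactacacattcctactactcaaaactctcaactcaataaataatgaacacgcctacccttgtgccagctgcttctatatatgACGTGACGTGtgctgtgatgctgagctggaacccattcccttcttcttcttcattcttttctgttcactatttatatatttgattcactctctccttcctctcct
EXLA1 has 1 ACGTG, 93 bases before its start. EXLA2 has 2, back to back, 105 and 100 bases before its start. The core stood in 5296 of 22031 windows (24%), in 9 of 43 members (20.9%) and in 2 of the 8 ABA-raised root genes (25%), close to the share of all windows. XTH19, which also rose after ABA in both organs, has no core in its window. The core stood in 5 of the 11 root-higher members (45.5%) and in 2 of the 25 shoot-higher members (8%). All these counts include the cores within root hair elements. TGTCTC was in 2350 windows (10.7%), in 4 members and in 0 of the 12 that rose after IAA in Col-0 roots. TGTCGG was in 996 windows (4.5%), in 2 members and in 2 of those 12 (XTH20 and EXPB3), and CACGTG in 1604 windows (7.3%) and 0 members. Windows of 250 bases hold only the promoter next to the start.

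Set directly against each other in Col-0 roots, IAA and ABA gave 6 members higher with IAA and 7 higher with ABA, beside 7.25% and 8.31% of all genes. XTH20 stood at 22.5, 17.6 and 17 CPM with IAA and 6.35, 4.04 and 9.02 with ABA (1.55, SE 0.27, adjusted p 0.00012). XTH33 was at 40.6, 72.8 and 57.6 with IAA and 26.7, 15.4 and 20.3 with ABA (1.45, SE 0.26, adjusted p 0.00022). EXPA4 was at 41.6, 60.9 and 54.2 with IAA and 19.3, 27.8 and 24.1 with ABA (1.14, SE 0.20, adjusted p 0.00017). Each of these 3, and likewise EXPA1, was higher in every IAA library than in any ABA library. EXPA1 was at 40.1, 35.9 and 43.1 with IAA and 21.3, 22.1 and 16.7 with ABA (0.99, SE 0.24, adjusted p 0.0048). EXPB3 and XTH18 were also higher with IAA (0.85, SE 0.22, adjusted p 0.009 and 0.67, SE 0.19, adjusted p 0.017). Higher with ABA were EXLA2 (-1.27, SE 0.21, adjusted p 9.6e-05), XTH28 (-1.20, SE 0.16, adjusted p 5.9e-06), EXPA11 (-1.08, SE 0.24, adjusted p 0.0021) and XTH27 (-0.39, SE 0.10, adjusted p 0.0082). EXPB1 was also higher with ABA, at 13.2, 5.98 and 9.44 CPM (-1.79, SE 0.31, adjusted p 0.00015). EXPA17 had 12, 8 and 0 counts in the IAA root libraries, 264, 40 and 44 in the ABA and 43, 45 and 39 in the mock root libraries (-3.67, SE 0.98, adjusted p 0.01). These are among the lowest counts of the 43 genes. Scaled to CPM, EXPA17 stood at 5.51, 1.9 and 1.65 in ABA roots and 1.64, 1.69 and 2.01 in mock roots, which overlap. EXPA2 had 7, 1 and 0 counts with IAA, 49, 19 and 39 with ABA and 5, 2 and 3 in mock (-3.57, SE 1.17, adjusted p 0.038).

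In this direct comparison 6 of the 13 calls missed the threshold without the root libraries high in the shoot signature: XTH33 (0.82, adjusted p 0.22), EXPA1 (0.90, adjusted p 0.063), EXPB3, XTH18, XTH27 and EXPA2 (adjusted p 0.13 to 0.38). Calls lost without single libraries were EXPA2 (any but IAA replicate 1, adjusted p up to 0.14), XTH18 (any but IAA replicate 1, up to 0.11), EXPB3 (IAA replicate 3, ABA replicate 2 or 3, up to 0.17), EXPA17 (ABA replicate 1, 0.06) and EXPA1 (ABA replicate 3, 0.056). In shoots 2 members were higher with IAA and 3 with ABA, beside 4.13% and 6.1% of all genes. XTH33 stood at 117, 103 and 80 CPM with IAA and 34, 24.4 and 23.5 with ABA (1.87, SE 0.26, adjusted p 1.4e-05), a call kept in every alternative. EXPA1 was at 89.5, 102 and 121 with IAA and 51.4, 55.7 and 51.8 with ABA (0.98, SE 0.24, adjusted p 0.007). EXPA11 (-0.74, SE 0.23, adjusted p 0.042), EXPB1 (-1.04, SE 0.30, adjusted p 0.027) and XTH21 (-1.42, SE 0.39, adjusted p 0.018) were higher with ABA, but were lost in 6, 5 and 3 of 6 fits without 1 library (up to 0.18), and EXPA1 without IAA shoot replicate 3 (0.056). The count of 5 fell to 3 without IAA shoot replicate 2 or ABA shoot replicate 1 or 3, and to 2 without IAA shoot replicate 3 or ABA shoot replicate 2.

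**Figure D4:**
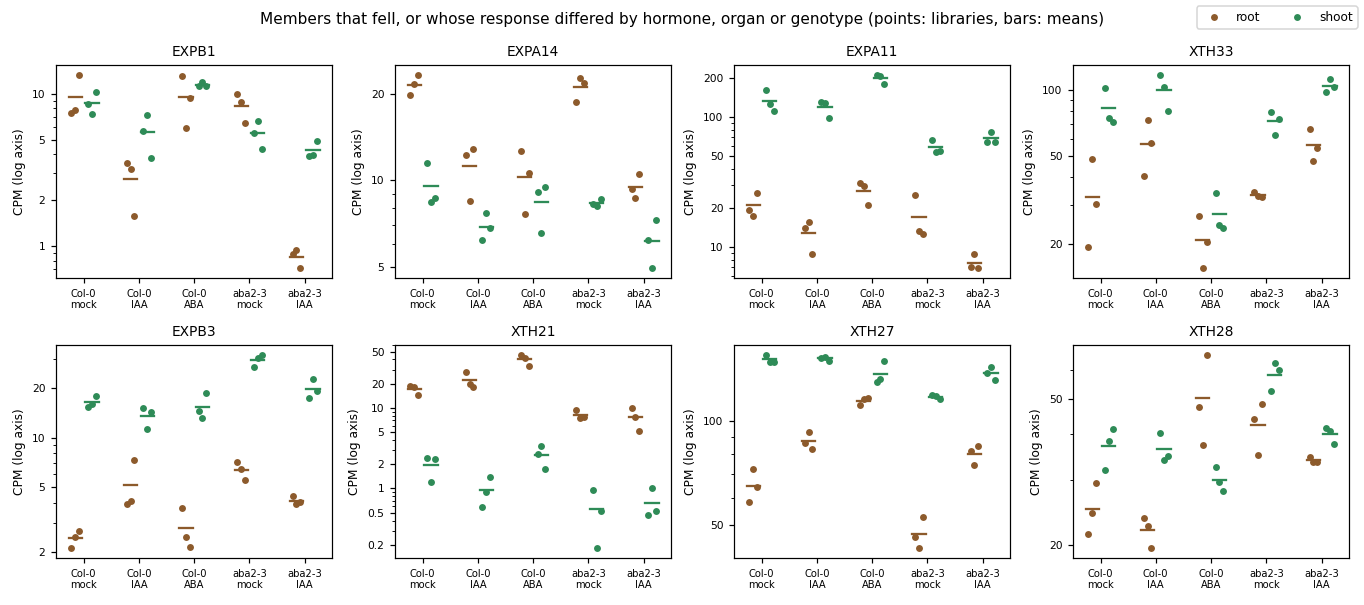
CPM on a log axis (y) in each library of the 10 groups (x), roots in brown and shoots in green, for 8 genes that fell or whose response differed by hormone, organ or genotype; points are libraries and bars the means of 3. EXPB1 root points drop after IAA but not after ABA, XTH33 points drop after ABA in the shoot, and the EXPB3 root mean is lowest in Col-0 mock.

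In mock-treated seedlings aba2-3 differed from Col-0 in 8 of the 43 genes in the root (3 higher, 5 lower) and 8 in the shoot (2 higher, 6 lower). The background was 3.26% and 3.92% of all genes in the root and 0.853% and 1.78% in the shoot, and the median log2 difference over the 43 was -0.04 in the root and -0.38 in the shoot, against 0.01 over all genes in the shoot. EXPB3 and XTH28 were higher and EXLA2 and XTH21 lower in both organs. EXPB3 stood at 2.1, 2.47 and 2.68 CPM in Col-0 and 7.12, 6.42 and 5.5 in aba2-3 mock roots (1.39, SE 0.23, adjusted p 0.00069), and at 15.5, 16 and 17.9 in Col-0 and 27, 30.7 and 32 in aba2-3 mock shoots (0.86, SE 0.21, adjusted p 0.026). XTH28 stood in roots at 21.4, 24.4 and 29.4 CPM in Col-0 and 43.9, 35.1 and 48.3 in aba2-3 (0.76, SE 0.16, adjusted p 0.0056), and in shoots at 32, 38.4 and 41.4 in Col-0 and 52.3, 62.3 and 59.7 in aba2-3 (0.64, SE 0.16, adjusted p 0.032). EXLA2 stood at 14, 9.47 and 11.9 CPM in aba2-3 roots and 55.1, 44.6 and 42.4 in its shoots, below every Col-0 mock library of the same organ (-0.81, SE 0.22, adjusted p 0.024 and -1.10, SE 0.21, adjusted p 0.0045). XTH21 differed by -1.06, SE 0.32, adjusted p 0.046 in roots and -1.71, SE 0.40, adjusted p 0.02 in shoots.

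Further root differences were EXPA1, higher in aba2-3 at 34.3, 25.9 and 22.8 CPM against 10.6, 12.3 and 22.8 (0.86, SE 0.24, adjusted p 0.03), and 3 XTHs that were lower. For EXPA1 the lowest aba2-3 and highest Col-0 libraries stood at 22.77 and 22.76 CPM. Its highest library in each genotype was the one above 5% of the shoot signature. The EXPA1 call was lost in 4 of 6 fits without 1 library (adjusted p 0.061 to 0.17). XTH19 stood at 32.8, 18.1 and 23.2 CPM in aba2-3 against 39.3, 45.6 and 49.4 in Col-0 (-0.86, SE 0.21, adjusted p 0.014). XTH16 stood at 21.2, 16 and 10.5 against 27.2, 37.3 and 30.5 (-0.99, SE 0.27, adjusted p 0.025), and XTH27 differed by -0.46, SE 0.10, adjusted p 0.0067. The shoot of aba2-3 was lower in XTH5, at 6.92, 5.04 and 5.57 CPM against 21.8, 16.9 and 18.6 (-1.70, SE 0.23, adjusted p 9.2e-05). EXPA11 was lower too, at 66.9, 54.5 and 54.8 CPM against 164, 127 and 112 (-1.19, SE 0.24, adjusted p 0.0056), as were EXLA1 (-0.94, SE 0.21, adjusted p 0.013) and XTH30 (-0.83, SE 0.20, adjusted p 0.022). In the root EXPB3 and XTH28 held without any 1 library, and in the shoot XTH5 did. The other genotype calls did not: the count in roots fell to 2 without Col-0 mock root replicate 2, 3 without aba2-3 mock root replicate 2 and 4 without its replicate 3, and in shoots to 2 without Col-0 mock shoot replicate 1 and to 1 without aba2-3 mock shoot replicate 2 or 3. Col-0 mock shoot replicate 1, the library low in the shoot signature, had the highest of the 3 Col-0 mock shoot values in all 6 genes that were lower in aba2-3 shoots, for example 82.1, 47.8 and 43.7 CPM for EXLA1 and 142, 67.1 and 80.8 for XTH30, and its part in these differences was not tested beyond leaving it out. The root signature stood at 95.01% to 111.25% of its root level in the aba2-3 mock roots and 74.52% to 80.34% in those of Col-0. Both its genes and that level were taken from aba2-3 IAA libraries, so it is not a neutral scale between the genotypes. The part of this signature in the root differences was not tested. With offsets for base composition 3 of the 8 root calls remained, EXPB3, XTH28 and EXLA2.

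The response of roots to IAA differed between genotypes for 1 of the 43 genes, EXPB3, beside 0.74% of all genes with a larger and 0.582% with a smaller value in aba2-3. EXPB3 rose after IAA in Col-0 roots, whereas in aba2-3 roots it stood at 7.12, 6.42 and 5.5 CPM in mock and 4.38, 3.91 and 4.05 after IAA (-0.62, SE 0.22, adjusted p 0.07), a difference between the responses of -1.70, SE 0.32, adjusted p 0.0088. This held without any 1 of the 12 libraries, but the adjusted p was 0.054 with base composition offsets and 0.062 when the 4 groups were fitted alone. XTH19 and XTH20 had differences of 0.63, SE 0.30, adjusted p 0.32 and 0.38, SE 0.37, adjusted p 0.69 between the genotypes. In shoots edgeR called 0 of the 43 genes for a difference in the IAA response between genotypes, 3 had an unadjusted p under 0.05 and DESeq2 called 0, beside 0.00451% of all genes higher and 0% lower by edgeR.

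In all, 18 of the 43 genes were called in none of 10 hormone or genotype comparisons, which does not make them unchanged. The share of all genes tested that were called in none was not computed. The 18 members were EXPA5, EXPA6, EXPA7, EXPA8, EXPA10, EXPA18, EXLA3, EXLB1, XTH4, XTH9, XTH12, XTH13, XTH14, XTH15, XTH22, XTH25, XTH31 and XTH32, and they hold both organ extremes. Abundant genes were among them. XTH4 stood at 2129, 1417 and 1329 CPM in Col-0 mock shoots, 2033, 2206 and 1713 after IAA and 2114, 2094 and 2556 after ABA. XTH15 stood at 1336, 1297 and 747 CPM in mock, 1795, 1629 and 1268 after IAA and 2221, 1426 and 989 after ABA. In both genes the mock shoot libraries alone spread over more than the distance between the group means. EXLB1 in Col-0 roots stood at 222, 210.4 and 188 CPM in mock, 132, 115 and 136 after IAA and 142, 135 and 172 after ABA. Neither treated group overlapped the mock group, but the differences of -0.70, SE 0.26, adjusted p 0.12 and -0.47, SE 0.26, adjusted p 0.26 missed the threshold. EXLA3, the neighbour of EXLA1 on chromosome 3, stood at 10.3, 17.1 and 10.8 CPM in Col-0 mock roots, 19.7, 17.9 and 19.1 after IAA and 28.6, 14.5 and 19.4 after ABA (0.57, SE 0.30, adjusted p 0.31 and 0.71, SE 0.30, adjusted p 0.11).

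Other genes of the wall were called as well. After IAA in aba2-3 roots these were 2 of 6 other expansins, 1 of 7 other XTHs, 3 of 7 genes that build or trim xyloglucan, 3 of 6 genes for cellulose synthesis and 1 of 2 proton pumps, beside 7.02% of all genes higher and 4.82% lower. After IAA in Col-0 roots 1 other expansin and 1 cellulose gene were called (2.64% and 2.92% of all genes), and after ABA 1 xyloglucan and 1 cellulose gene (8.31% and 7.4%). After IAA in Col-0 shoots 1 proton pump was called (0.921% and 1.3%). None of these genes was called by edgeR after ABA in Col-0 shoots, after IAA in aba2-3 shoots or between genotypes in mock. Among the other expansins, EXPA12 rose after IAA in roots of Col-0 (2.39, SE 0.63, adjusted p 0.026) and aba2-3 (2.87, SE 0.66, adjusted p 0.0052), and EXPA13 fell in aba2-3 roots (-0.59, SE 0.20, adjusted p 0.049). XTH8 fell after IAA in aba2-3 roots (-1.31, SE 0.21, adjusted p 0.00023). After IAA in aba2-3 roots CSLC4, a glucan synthase of the xyloglucan backbone, rose (0.91, SE 0.23, adjusted p 0.012). XYL1, an α-xylosidase that trims it (-0.94, SE 0.18, adjusted p 0.0013), and the xylosyltransferase XXT2 (-0.47, SE 0.10, adjusted p 0.0034) fell. MUR3, a xyloglucan galactosyltransferase, rose after ABA in Col-0 roots (1.14, SE 0.18, adjusted p 4.3e-05). Of the cellulose synthases of primary walls, CESA2 fell after IAA in Col-0 roots (-0.66, SE 0.19, adjusted p 0.041). CESA1, CESA2 and CESA6 fell after IAA in aba2-3 roots (-0.73, SE 0.18, adjusted p 0.0086, -0.62, SE 0.19, adjusted p 0.035 and -0.60, SE 0.20, adjusted p 0.048). CESA1 rose after ABA in Col-0 roots (0.60, SE 0.18, adjusted p 0.021). Of the 2 plasma membrane proton pumps that acidify the wall, AHA1 fell after IAA in Col-0 shoots (-0.47, SE 0.13, adjusted p 0.047) and aba2-3 roots (-0.50, SE 0.13, adjusted p 0.011), and AHA2 was not called after either hormone. Leaving out 1 library lost the calls of CESA2 in Col-0 and AHA1 in Col-0 shoots in 6 of 6 fits, EXPA13 and CESA6 in 5, EXPA12 in Col-0, CSLC4 and CESA2 in aba2-3 in 4, CESA1 after ABA in 3, and CESA1 and AHA1 in aba2-3 roots in 1.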

How the data were processed

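The submitters deposited 1 table per library that lists 33602 genes with positions, exon length, read counts, CPM and RPKM. Counts are whole and not normalized, and per the file headers and the values the deposited CPM and RPKM are those counts scaled to library total (CPM) and also to exon length (RPKM), as recomputed in 30 of 30 files. Per the submitters' processing notes the genome was TAIR10 and the tools were STAR, Subread, featureCounts, edgeR and limma, without versions, and the strand setting is not given in the sources used here. Deposited positions of 32834 of 32835 shared genes overlapped RefSeq TAIR10.1, so names and upstream sequence were taken from it. Only the counts were tested.

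All 30 libraries entered 1 edgeR 4.0.16 quasi-likelihood fit in R 4.3.3 (limma 3.58.1 underneath) with a mean per group, TMM scaling and filterByExpr, which left 22156 genes. Each of 16 comparisons was adjusted by Benjamini-Hochberg over all of them and called under 0.05. CPM in the text is on TMM-scaled library sizes, and SE is the size of the log2 difference over the root of F. An interaction is the difference between the responses of both organs or both genotypes. In the 10 hormone or genotype comparisons the compared groups did not overlap for any called member. A lack of overlap therefore adds no support to a call, and its share over all genes was not computed. The steps were tested on simulated data in which 200 genes with higher counts were changed. A log2 change of 1 was recovered in 36% of them for IAA in Col-0 roots and 52.5% for ABA in Col-0 shoots. A change of 2 was recovered in 96.5% for IAA in Col-0 roots and 87.5% for organ by ABA. Of the simulated calls 1.4% to 3.7% were false. Apart from the changed genes, each simulated gene had 1 mean in all groups and a spread set by its level alone. The simulation held no organ differences and no RNA of the other organ, so these shares need not hold for the data. Alternatives were RLE size factors, DESeq2 1.42.0, no filter, a mean count of at least 20, the compared groups alone, the replicate block, other-organ RNA covariates and each library left out, and, chosen after seeing the data, base-composition offsets over 20 bins and removal of root libraries above 5% of the shoot signature.

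The members and lists were chosen with earlier results of these data known. Up to 4 called members with the largest rise and up to 4 with the largest fall per comparison were to be given per library. Further members were given in this way after their values were seen, where hormones, organs or genotypes differed. The search for the root hair element was added to the motifs listed at the outset. Replicate numbers were checked as pairs by correlating deviations from the group means. Every pair was above 0.1 for IAA in Col-0 shoots (0.54, 0.27 and 0.22) and in aba2-3 shoots (0.14, 0.16 and 0.29), and in no other comparison, and the labels do not say what a number shares. The range of library totals, 3871038 to 99263091 counts, sets the precision of low genes.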

Additional observations from a re-analysis of the deposited data

Results flagged for a closer look

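The responses of 6 genes differed between root and shoot of Col-0 by a test of the difference itself. After IAA the response in the root exceeded that in the shoot by 2.1 on the log2 scale for XTH20 (edgeR adjusted p 0.0051), 1.35 for EXPB3 (0.032) and 1.31 for EXPA4 (0.02). After ABA it did so by 1.48 for EXLA2 (0.0093), 0.95 for XTH27 (0.00072) and 1.31 for XTH28 (0.0026). In roots the IAA response of EXPB3 was lower in aba2-3 than in Col-0, with a difference of -1.70 (0.0088). The organ calls of EXPA4 and EXPB3 after IAA and the genotype call of EXPB3 were lost with base-composition offsets (adjusted p 0.054, 0.095 and 0.054) and with the 4 groups fitted alone, although 3 members (XTH18, XTH19 and XTH20) were called for organ by IAA with the offsets.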

How the results depend on the processing

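Over 2476 recomputed values of the 164 member calls, 2227 kept their direction and their side of the threshold, 249 kept the direction but missed the threshold and 0 reversed. The replicate block lost 1 call, EXPA1 after ABA in Col-0 shoots, and no other call of a member. It gave 15 members called for IAA in Col-0 roots (14 without it), 16 for IAA in aba2-3 roots (15), 10 for genotype in mock roots (8) and 6 for IAA against ABA in shoots (5), and the same number in the other comparisons but ABA in Col-0 shoots (4 against 5).

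DESeq2 gave 3 members called for IAA in Col-0 shoots (1 by edgeR), 7 for IAA in aba2-3 shoots (4), 14 for genotype in mock shoots (8), 7 for organ by IAA (3), 5 for organ by ABA (3) and 3 for genotype by IAA in roots (1). Fitting the compared groups alone gave 2 for ABA in Col-0 shoots (5), 13 for IAA in aba2-3 shoots (4), 5 for genotype in mock roots (8), 5 for genotype in mock shoots (8), 1 for organ by IAA (3) and 0 for genotype by IAA in roots (1). For IAA in Col-0 shoots it gave 1, as before, but EXPA5 lower in place of EXLA2 higher. With no filter on low counts 0 were called for IAA in Col-0 shoots. Base-composition offsets gave 3 for genotype in mock roots and 0 for genotype by IAA in roots, other-organ RNA covariates 5 for organ by ABA, and removal of the root libraries with the highest shoot signature 5 for organ by IAA. The cause was not tested. The shares of all genes called under the alternative fits are not given here. A changed count of members, here or with 1 library left out, may therefore follow a change over all genes.

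Leaving out 1 library at a time gave 10 to 14 members called for IAA and 8 to 11 for ABA in Col-0 roots, 0 to 4 for IAA and 2 to 7 for ABA in Col-0 shoots, 12 to 14 for IAA in aba2-3 roots and 3 to 4 in its shoots. It gave 2 to 7 for genotype in mock roots and 1 to 8 in mock shoots, 35 to 38 for organ in Col-0 and 36 to 39 in aba2-3, and 9 to 14 for IAA against ABA in roots and 2 to 5 in shoots. For organ by IAA it gave 1 to 5, for organ by ABA 3 to 5, for genotype by IAA 1 to 1 in roots and 0 to 0 in shoots. Depth limits EXPA2, EXPA17 and XTH25, which had under 10 counts in some libraries. Other members also had under 10 counts in some libraries of the organ where they were low. Among them were EXPA5 and EXPA10 in roots and EXPA7 and EXPA18 in shoots, so the size of their organ differences rests on low counts.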
